A study of Homo sapiens with 6 samples.

Results

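The miR-10 family and its relatives miR-99, miR-100 and miR-125 were followed in small RNA libraries of extracellular vesicles (exosomes) released by MHCC97H, an established line of highly metastatic human liver cancer cells. Its members were the names in the deposited table that, without the arm and precursor copy number, read miR-10a, miR-10b, miR-99a, miR-99b, miR-100, miR-125a or miR-125b. The rule found 11 of the 1007 names in the table, of which 3 come from HOX loci (hsa-miR-10a-5p, hsa-miR-10b-5p and hsa-miR-10a-3p). The other 8 belong to clusters shared with let-7: hsa-miR-100-5p, hsa-miR-99a-5p, hsa-miR-99b-5p, hsa-miR-99b-3p, hsa-miR-125a-5p, hsa-miR-125a-3p, hsa-miR-125b-5p and hsa-miR-125b-1-3p. None was in a row that named several miRNAs, and 9 of the 11 had enough counts to be tested. The libraries were 3 from cells exposed for 24 h to 4 µmol/L xanthatin, a plant sesquiterpene lactone, and 3 from control cells. Per the labels, both groups were grown in 5% fetal bovine serum plus 5% serum freed of exosomes, DMSO was at 0.5% in all experiments, and vesicles were pelleted from the medium. All libraries come from this line, and the labels do not say whether those of a group were separate cultures. The p-values therefore measure only the spread between these libraries.

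The miR-10 family is among the oldest microRNA families of animals. Genes for miR-10a and miR-10b lie inside HOX clusters, the arrays of homeobox genes that set position along the body axis, and miR-10b is known for its part in invasion of tumour cells. miR-99 and miR-100 are related to miR-10 and are known for repressing the growth kinase gene MTOR, while miR-125 is known for repressing LIN28, a protein that blocks maturation of let-7. In the genome, miR-99 or miR-100 and miR-125 flank a let-7 gene in each of 3 clusters, and the mature forms are cut from a shared primary transcript.

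Mature sequences show how the members are related. They are given 5′ to 3′ from RefSeq (GRCh38.p14), where 10 of the 11 names matched, with the seed (bases 2 to 8), which does most of the target pairing, in capitals. They are shown because the comparisons are between close relatives that differ by few bases.
miR-10a-5p: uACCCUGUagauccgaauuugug
miR-100-5p: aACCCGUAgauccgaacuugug
miR-99a-5p: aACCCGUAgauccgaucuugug
miR-99b-5p: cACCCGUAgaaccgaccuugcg
miR-125a-5p: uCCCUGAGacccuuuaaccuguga
miR-125b-5p: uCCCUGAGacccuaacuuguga
miR-99b-3p: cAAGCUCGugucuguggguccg
miR-125a-3p: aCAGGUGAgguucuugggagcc
The seed ACCCGUA is shared by miR-100-5p, miR-99a-5p and miR-99b-5p, and the seed CCCUGAG by miR-125a-5p and miR-125b-5p. Counted from the 5′ end of miR-100-5p, miR-99a-5p differs at 1 base (A16U) and miR-99b-5p at 4 (A1C, U11A, A16C and U21C). When base 6 of miR-10a-5p, a U, is left out, the remaining bases match miR-100-5p at 20 of 22 places, with U1A and U18C as the differences, counted along miR-10a-5p. That extra U falls inside the seed, so the seeds of miR-10a-5p and miR-100-5p are not the same word. miR-125a-5p and miR-125b-5p share their first 13 bases. How the deposited counts assigned reads that fit more than 1 name is not given in the sources used here, so small transfers between miR-99a-5p and miR-100-5p cannot be told apart from counts of their own.

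The precursors were placed with GENCODE release 29 (GRCh38), and the submitters' notes name hg38. MIR10A lies on the minus strand at chr17:48579838-48579947, in an intron of HOXB3 and overlapping an exon of a HOXB4 transcript. MIR10B lies on the plus strand at chr2:176150303-176150412, in an intron of HOXD3. MIR100, MIRLET7A2 and MIR125B1 lie within 52552 bases at chr11:122099757-122152308, in introns of the noncoding transcript MIR100HG. MIR99A, MIRLET7C and MIR125B2 lie within 51237 bases at chr21:16539089-16590325, in introns of MIR99AHG. MIR99B, MIRLET7E and MIR125A lie within 728 bases at chr19:51692612-51693339, in introns of SPACA6. Mature miR-125b-5p has the same sequence from chromosomes 11 and 21, so its counts cannot be divided between these clusters.

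Depth differed between the groups. The xanthatin libraries held 204520 to 267956 miRNA counts and the control libraries 63965 to 80088. Hepatocyte markers in the vesicles summed to 32407 to 40771 CPM (counts per 1000000, on library sizes scaled by TMM) in xanthatin and 107059 to 129508 CPM in control libraries. In xanthatin libraries 5 of 6 markers were read, and in control libraries 6 of 6. The marker miR-885 had 0 counts in xanthatin and 15, 0 and 0 counts in control libraries. The list went both ways. Of its 7 tested names 3 were called lower, miR-122-5p, miR-148a-3p and miR-483-5p. Called higher was 1, miR-192-5p (1.22 on the log2 scale, edgeR adjusted p = 0.0399). Not passing were miR-194-5p at 1.67 (adjusted p = 0.338), miR-194-3p at -1.80 (0.0585) and miR-483-3p at -2.09 (0.0520). Over all names, the quasi-likelihood test of edgeR called 77 of 254 at a threshold of 0.05 on the adjusted p, of which 34 were higher and 43 lower after xanthatin.

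Among the 9 members tested, miR-100-5p rose, both miR-10 5p arms fell, and miR-99b-3p fell. This is 4 of 9, beside a background of 30.3% of all tested names called, with 13.4% called higher and 16.9% called lower. miR-99b-3p passed the filter on low counts through the control libraries, where it was higher, so the counts and the median over these 9 are a description from which nothing is read. Its call was lost with no filter on low counts (-2.46 on the log2 scale, adjusted p = 0.118), at a mean CPM of 10 and above (-2.69, adjusted p = 0.0976) and with upper-quartile scaling (-2.65, adjusted p = 0.0556). The median log2 fold change of the 9 was -0.0047, and that of all 254 tested names was -0.16. The 2 HOX-locus members tested were both lower, and the 5 let-7-linked 5p arms lay between -0.0047 and 0.56. CPM values of the groups did not overlap for 7 of the 9 members, 3 higher and 4 lower in xanthatin libraries, beside 54.7% of all tested names (25.2% higher and 29.5% lower).

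**Figure D1:**
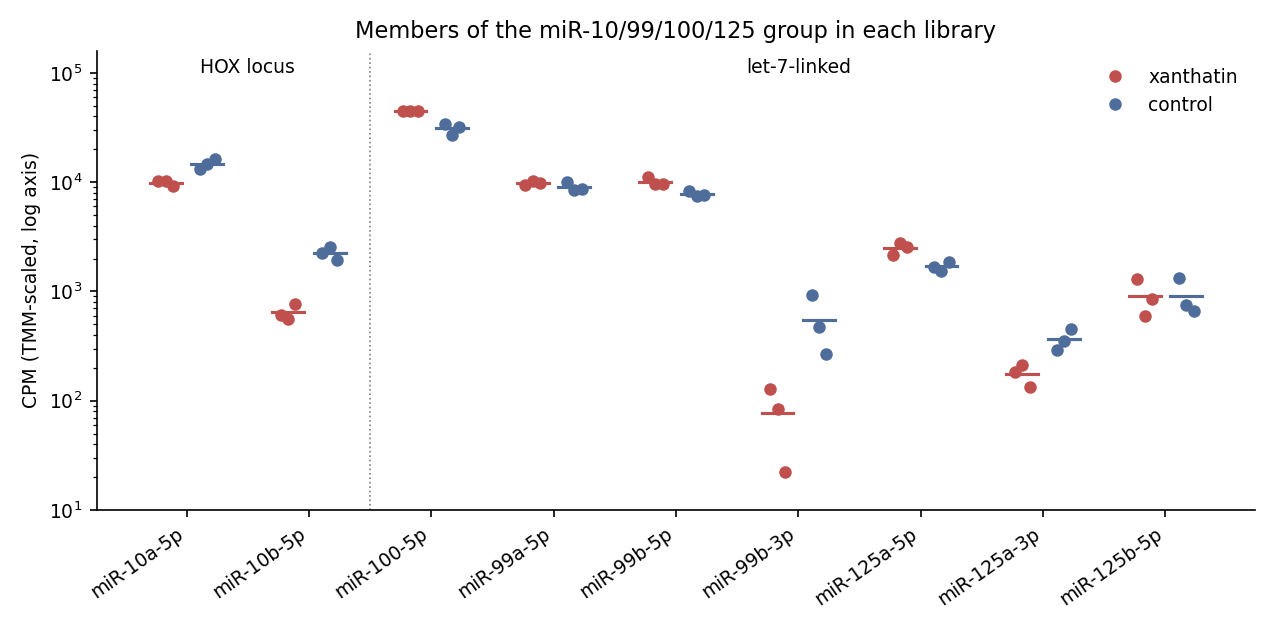
Level of each of the 9 tested members in each library, in TMM-scaled CPM on a log axis, with xanthatin libraries left of control libraries and a line at each group's mean. miR-10a-5p and miR-10b-5p lie lower in every xanthatin library than in every control library, miR-100-5p lies higher, and miR-99a-5p and miR-125b-5p overlap.

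hsa-miR-10b-5p showed the larger fall of the HOX-locus pair. It had 129, 134 and 137 counts in xanthatin libraries against 196, 203 and 147 counts in control libraries, although the xanthatin libraries were the deeper ones. After scaling these were 611, 557 and 761 CPM in xanthatin libraries and 2268, 2565 and 1956 CPM in control libraries. The groups did not overlap, and the highest xanthatin library stood well below the lowest control library. The log2 fold change was -1.81 (SE 0.25, edgeR adjusted p = 0.00306), a level 0.284 times that of control libraries. The call held with each library left out in turn, at log2 fold changes of -1.90 to -1.63 (adjusted p = 0.00864 to 0.0200). In the deposited TPM values, which are scaled to a larger total, miR-10b-5p stood at 4.47, 4.21 and 5.10 in xanthatin libraries and 16.2, 20.5 and 15.6 in control libraries.

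hsa-miR-10a-5p was the far more abundant of the pair. It held 10188, 10231 and 9281 CPM in xanthatin libraries and 13160, 14606 and 16247 CPM in control libraries, with no overlap. It fell to 0.675 of the control level (log2 fold change -0.57, SE 0.12, adjusted p = 0.0144). That call was lost without xanthatin replicate 1 (adjusted p = 0.0516) or 3 (0.0826) and without control replicate 2 (0.142) or 3 (0.170), with log2 fold changes of -0.67 to -0.43 over all libraries left out. It was also lost with no filter on low counts (-0.30 on the log2 scale, adjusted p = 0.391), at a mean CPM of 10 and above (adjusted p = 0.120), with RLE (0.0672) or upper-quartile scaling (0.114), with known names only (0.0687), with the replicate number as a block (0.0715), with thinned libraries (0.0583) and without novel550_mature, a predicted sequence (0.105). The opposite arm, miR-10a-3p, was near the limit of detection, with 1, 2 and 0 counts in xanthatin and 1, 1 and 1 in control libraries, and was not tested.

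The 2 HOX-locus members were not lower by the same amount. Reads of miR-10b-5p per read of miR-10a-5p numbered 0.0599, 0.0545 and 0.0820 in xanthatin libraries and 0.172, 0.176 and 0.120 in control libraries. Every xanthatin library was below every control library, and the ratio needs no scaling because both counts come from the same library. It averaged 0.0655 ± 0.0146 in xanthatin and 0.156 ± 0.031 in control libraries (SD, n = 3 each). It is given as a description, with no test. No mature sequence was matched for miR-10b-5p, so its likeness to miR-10a-5p is not shown. Transfers of reads between this pair cannot be told apart from counts of their own.

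miR-10b is also used as a marker of stromal and endothelial cells, and the summed levels of other such markers and of blood and serum markers were lower in xanthatin libraries as well. The 6 other stromal and endothelial markers (miR-143, miR-145, miR-126, miR-199a, miR-199b and miR-214) summed to 129 to 244 CPM in xanthatin and 1099 to 2975 CPM in control libraries. Most of the control sum was miR-143-3p, at 1956, 872 and 2395 CPM. miR-145 and miR-214 were at 0 in xanthatin libraries, but had few reads in control libraries too. There miR-214 had 39, 0 and 0 counts, and the 5p arm of miR-145 had 5, 0 and 3. Of their 2 tested names, miR-143-3p fell (-4.26 on the log2 scale, adjusted p = 0.00272) and miR-126-3p, at -1.86, did not pass (adjusted p = 0.0750). Both names passed the filter on low counts only through the control libraries, where they were higher, so these log2 fold changes support nothing. Blood and serum markers (miR-451a, miR-486, miR-144, miR-223, miR-142 and miR-150) summed to 619 to 795 CPM in xanthatin and 5496 to 10995 CPM in control libraries, nearly all of it miR-486-5p, which was the 1 tested name and fell (-3.52 on the log2 scale, adjusted p = 8.54e-04). Of these 6 markers, miR-144 was not in the table and miR-223 and miR-150 were at 0 in xanthatin libraries. In control libraries miR-223 had 0, 0 and 2 counts and miR-150 had 0, 0 and 11. miR-142 had 1 count in 1 xanthatin library and 0 in control libraries. miR-451a, the defining marker of red cells, had 1, 9 and 0 counts in xanthatin and 1, 3 and 2 in control libraries. All libraries come from the MHCC97H line and its medium, which held serum, and not from a tissue that mixes these cell types. The part of the serum in the fall of miR-10b-5p was not tested. In such bulk samples, fewer vesicles of a given source and less of the miRNA per vesicle cannot be told apart.

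Among the miR-99 and miR-100 members, hsa-miR-100-5p was the most abundant of the whole group in both conditions, ranking 6 among the 497 known human names in xanthatin and 7 in control libraries. It had 45057, 45382 and 44959 CPM in xanthatin libraries and 34340, 26874 and 32108 CPM in control libraries. The xanthatin libraries were close to each other and all above the control libraries. miR-100-5p rose to 1.45 times the control level (log2 fold change 0.54, SE 0.11, adjusted p = 0.0103). With library totals in place of TMM it was at 0.19 on the log2 scale (adjusted p = 0.192). That scaling moved the log2 fold changes of the tested names by a median of -0.34. Which centre is right, that of TMM or that of library totals, was not tested.

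hsa-miR-99a-5p, which differs from miR-100-5p at a single base outside the seed, did not pass the test. It had 9350, 10368 and 9847 CPM in xanthatin libraries and 9988, 8415 and 8742 CPM in control libraries, and the groups overlapped. Its log2 fold change was 0.12 (SE 0.12, adjusted p = 0.497), and -0.22 with library totals only. Reads of miR-100-5p per read of miR-99a-5p numbered 4.82, 4.38 and 4.57 in xanthatin libraries and 3.44, 3.19 and 3.67 in control libraries, with no overlap between the groups.

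hsa-miR-99b-5p, from chromosome 19, had 11225, 9612 and 9575 CPM in xanthatin libraries and 8264, 7556 and 7678 CPM in control libraries. Every xanthatin library was above every control library, but the difference did not pass, at 0.37 on the log2 scale (SE 0.12, adjusted p = 0.0650). It did pass with DESeq2 (0.48, adjusted p = 0.00378), with RLE scaling (0.48, adjusted p = 0.0460), with limma-trend (0.37, adjusted p = 0.0490) and without novel550_mature, the most abundant predicted sequence (0.50, adjusted p = 0.0442). With library totals only it was at 0.03. Together the 3 names with the seed ACCCGUA took 5.78% ± 0.10 of the counts in xanthatin and 5.40% ± 0.50 in control libraries (SD, n = 3 each), with overlapping ranges.

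Neither 5p arm of miR-125 passed the test. miR-125a-5p had 2145, 2781 and 2571 CPM in xanthatin libraries and 1690, 1529 and 1863 CPM in control libraries, which did not overlap. Its log2 fold change was 0.56 (SE 0.21, adjusted p = 0.0819), about that of miR-100-5p with a larger error, and it passed with DESeq2 (0.66, adjusted p = 0.00517).

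miR-125b-5p had 1297, 595 and 844 CPM in xanthatin libraries and 1319, 758 and 665 CPM in control libraries. Replicate 1 was the highest in each group, and the ranges overlapped almost wholly. The log2 fold change was -0.0047 (SE 0.43, adjusted p = 0.992), and this error leaves room for a change as large as that of miR-125a-5p. Its other arm in the table, miR-125b-1-3p, had 0, 4 and 1 counts in xanthatin and 1, 0 and 20 counts in control libraries and was not tested. The 20 counts in control replicate 3 make up nearly all of its control reads. Both 5p arms together took 0.303% ± 0.0021 of the counts in xanthatin and 0.293% ± 0.034 in control libraries.

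On chromosome 19 the 3p arms of miR-99b and miR-125a were lower in xanthatin libraries, with miR-99b-3p passing the test, while their 5p arms lay slightly higher without passing it. miR-99b-3p had 27, 20 and 4 counts in xanthatin libraries and 80, 37 and 20 counts in control libraries, which were shallower. As CPM these were 128, 83.1 and 22.2 in xanthatin libraries and 926, 467 and 266 in control libraries, with a wide spread but no overlap. It fell to 0.142 of the control level (log2 fold change -2.81, SE 0.81, adjusted p = 0.0435), and it passed the count filter through its control libraries. The call was lost without xanthatin replicate 1 (adjusted p = 0.0625), 2 (0.115) or 3 (0.0864) and without control replicate 1 (0.130) or 2 (0.0914), at log2 fold changes of -3.34 to -2.25.

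miR-125a-3p had 39, 51 and 24 counts in xanthatin and 25, 28 and 34 counts in control libraries. Scaled, these were 185, 212 and 133 CPM in xanthatin and 289, 354 and 452 CPM in control libraries, with no overlap. The log2 fold change of -1.04 (SE 0.45, adjusted p = 0.122) did not pass.

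Within a hairpin, the share of reads from the 3p arm needs no scaling. For miR-99b it was 1.13%, 0.858% and 0.231% in xanthatin libraries and 10.1%, 5.83% and 3.35% in control libraries. The exact 95% Clopper-Pearson intervals, which cover counting error only, reached at most 1.63% in xanthatin and started at 2.06% or above in control libraries. For miR-125a the 3p share was 7.93%, 7.08% and 4.93% in xanthatin libraries and 14.6%, 18.8% and 19.5% in control libraries. The groups did not overlap, although the interval of xanthatin replicate 1 reached 10.7% and that of control replicate 1 began at 9.69%. The means were 0.738% ± 0.459 in xanthatin and 6.42% ± 3.40 in control libraries for miR-99b, and 6.65% ± 1.55 in xanthatin and 17.7% ± 2.65 in control libraries for miR-125a (SD, n = 3 each). Over the 21 hairpins with both arms tested, the 3p share was lower without overlap in 6, or 28.6%, which include these 2. miR-99b entered that set because the control libraries took its 3p arm past the count filter, so its place among the 6 supports nothing. Among the other 19 it was lower in 4, higher in 4 and overlapping in 11. Some of these 19 also entered because an arm passed the count filter through a single group, so these numbers are a description only.

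**Figure D2:**
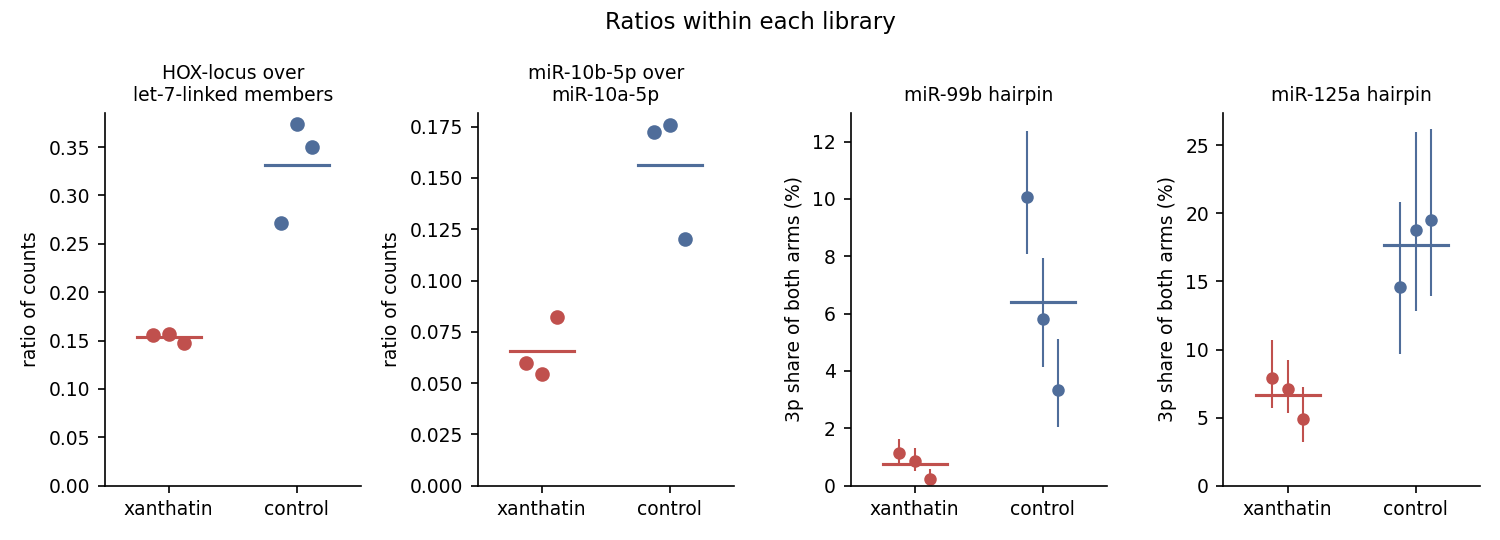
Ratios of counts (left pair of panels) and 3p shares in percent (right pair) in each library, xanthatin left of control, with a line at each group's mean and, for the shares, exact 95% intervals. In each panel the 3 xanthatin libraries lie below the 3 control libraries, for example at 0.148 to 0.156 against 0.272 to 0.374 for HOX-locus over let-7-linked counts.

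HOX-locus and let-7-linked members were then set against each other. The summed counts of miR-10a and miR-10b names numbered 2282, 2597 and 1808 in xanthatin and 1334, 1360 and 1369 in control libraries. Those of the let-7-linked names numbered 14656, 16609 and 12236 in xanthatin and 4910, 3637 and 3911 in control libraries. Per let-7-linked read there were thus 0.156, 0.156 and 0.148 HOX-locus reads in xanthatin libraries and 0.272, 0.374 and 0.350 in control libraries. The ratio was nearly constant over the xanthatin libraries, varied more over the control libraries, and did not overlap between the groups, with means of 0.153 ± 0.0048 and 0.332 ± 0.053 in xanthatin and control libraries (SD, n = 3 each). HOX-locus names took 0.937% ± 0.046 of all miRNA counts in xanthatin and 1.91% ± 0.24 in control libraries. Let-7-linked names took 6.11% ± 0.11 in xanthatin and 5.81% ± 0.54 in control libraries, with overlapping ranges. The sums are led by miR-10a-5p, which made up 92.4% to 94.8% of the miR-10 5p reads in xanthatin and 85.1% to 89.3% in control libraries, and by miR-100-5p. Since the members were chosen with earlier results of these libraries known, the ratio has no test.

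**Figure D3:**
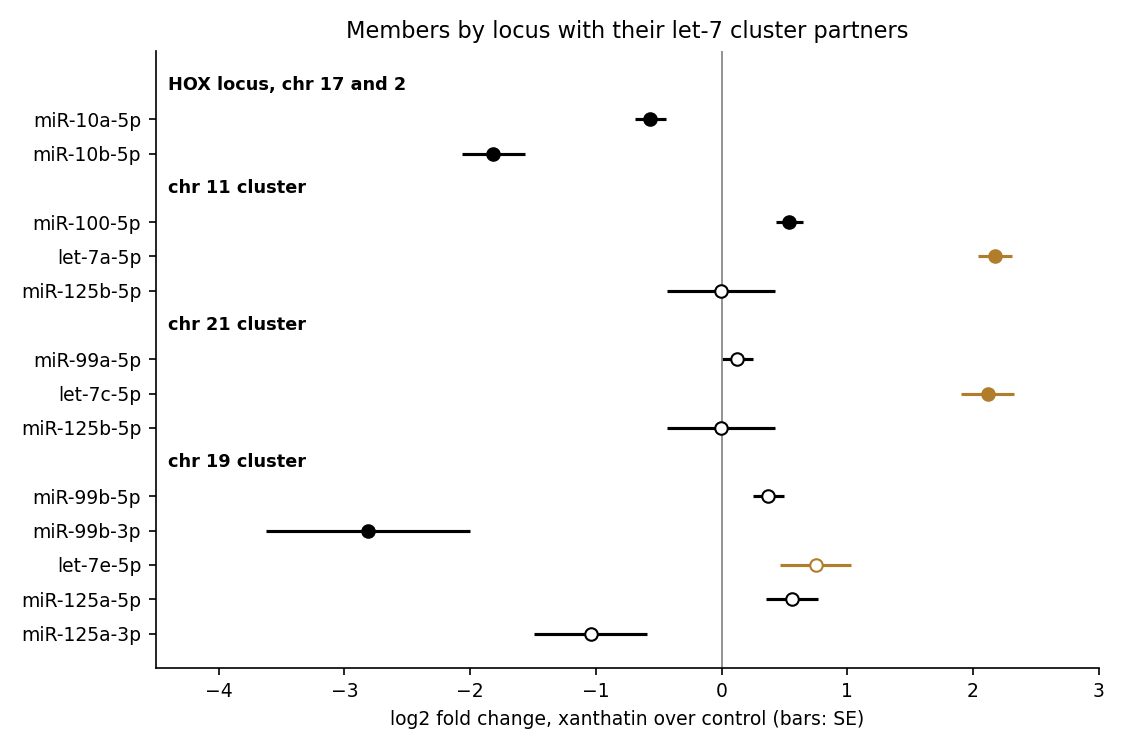
Log2 fold change of xanthatin over control libraries, with SE bars, for tested members (black) and the let-7 member of each cluster (brown), arranged by locus, with filled points at an adjusted p under 0.05. miR-125b-5p is drawn in both clusters that encode it, and let-7a-5p also has precursors outside chromosome 11. let-7a-5p and let-7c-5p lie near 2, while miR-100-5p and miR-99a-5p of the same clusters lie at 0.54 and 0.12.

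On chromosomes 11 and 21, the let-7 partner rose, and its ratio to the neighbouring member did not overlap between the groups. On chromosome 21, let-7c-5p had 18942, 22579 and 22838 CPM in xanthatin and 4282, 6456 and 4112 CPM in control libraries (log2 fold change 2.12, SE 0.21, adjusted p = 9.27e-04). Reads of let-7c-5p per read of miR-99a-5p numbered 2.03, 2.18 and 2.32 in xanthatin libraries and 0.429, 0.767 and 0.470 in control libraries. The order of the pair was thus turned round: let-7c-5p was the more abundant in each xanthatin library and miR-99a-5p in each control library. The same held on chromosome 11, where let-7a-5p per read of miR-100-5p stood at 1.55, 1.44 and 1.38 in xanthatin and 0.500, 0.522 and 0.390 in control libraries. let-7a-5p has precursors on chromosomes 9 and 22 as well, so its counts are not those of the chromosome 11 cluster alone. Counted from its 5′ end, it differs from let-7c-5p at 1 base (A19G) and from let-7e-5p at 1 base (U9G). Transfers of reads between these let-7 names cannot be told apart from counts of their own.

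In the compact chromosome 19 cluster the let-7 partner was also higher in every xanthatin library than in every control library. It was not called, and its ratio to the neighbouring member overlapped between the groups. let-7e-5p had 3342, 2548 and 2355 CPM in xanthatin and 1146, 2034 and 1730 CPM in control libraries, with a log2 fold change of 0.75 (SE 0.28) that did not pass (adjusted p = 0.0939). Reads of let-7e-5p per read of miR-99b-5p numbered 0.298, 0.265 and 0.246 in xanthatin and 0.139, 0.269 and 0.225 in control libraries, which overlap. Reads of miR-99b-5p per read of miR-125a-5p numbered 5.23, 3.46 and 3.72 in xanthatin and 4.89, 4.94 and 4.12 in control libraries, which also overlap. The difference between the clusters themselves was not tested.

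The order of the levels, in CPM, also shifted. A read spans nearly the whole of a mature miRNA, so CPM was not divided by length. In xanthatin libraries the order was miR-100-5p, miR-99b-5p, miR-10a-5p, miR-99a-5p, miR-125a-5p, miR-125b-5p, miR-10b-5p, miR-125a-3p, miR-99b-3p, miR-125b-1-3p and miR-10a-3p. There the ranges of miR-99b-5p, miR-10a-5p and miR-99a-5p overlapped as neighbours, and so did those of miR-125b-5p and miR-10b-5p. In control libraries miR-10a-5p stood second, above miR-99a-5p and miR-99b-5p with no overlap, and miR-10b-5p stood above both miR-125 5p arms. Control ranges overlapped between neighbours from miR-125b-5p to miR-99b-3p and from miR-99b-3p to miR-125a-3p. The 2 untested 3p arms stood last in both groups, with overlapping ranges.

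The names outside the group with the most similar profiles were found by the root mean square difference of log2(CPM + 1), each centred on its own mean, over the 6 libraries. For miR-10a-5p the nearest was miR-92a-3p (difference 0.11), ahead of miR-375-3p (0.19) and miR-335-3p (0.19). For miR-10b-5p the nearest were miR-1-3p, known from muscle (0.24), miR-371a-5p, of an embryonic cluster (0.26), and novel110_mature, a sequence predicted by the authors (0.26), all further away than the neighbours of miR-10a-5p. miR-100-5p was nearest to miR-106b-3p (0.084), miR-25-3p (0.092) and miR-92b-3p (0.14). miR-125a-5p shared the first pair of these neighbours (0.13 and 0.16), with miR-26a-5p after them (0.16). These are descriptions of 6 libraries in 2 groups and carry no test.

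**Figure D4:**
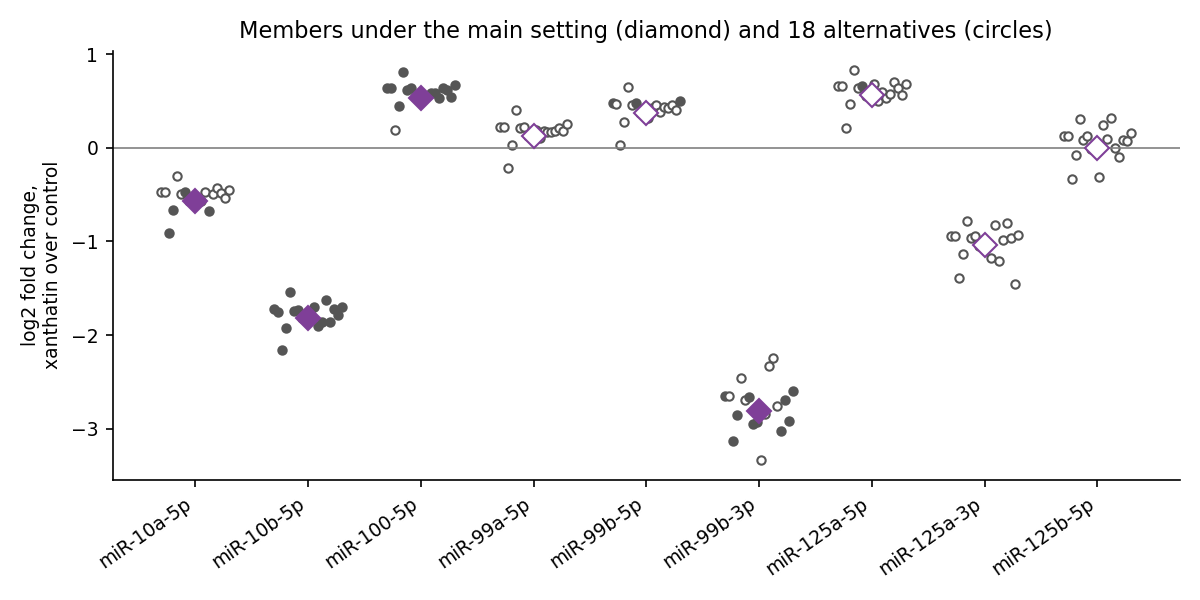
Log2 fold change of xanthatin over control libraries for each tested member as reported (diamond) and under 18 alternative settings or libraries left out (circles), filled where the adjusted p is under 0.05. miR-10b-5p is filled throughout at -2.16 to -1.54, miR-10a-5p stays below 0 but is filled in 6 of 18 alternatives, and miR-125b-5p scatters around 0.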

How the data were processed

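The authors deposited, per the file headers, a table with a count column and a TPM column for each of the 6 libraries, by mature miRNA name. The deposited counts were whole numbers and were not normalised. The deposited TPM was the count divided by a constant per library with no length term, scaled to a total of which miRNA counts made up 0.660% to 0.841%. The submitters' processing notes name hg38 as the build. The aligner, the miRNA database and the counter are not given in the sources. Samples were grouped by title.

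The whole table of counts was fitted by group in edgeR 4.0.16 (R 4.3.3) with its quasi-likelihood test, TMM scaling, the default count filter (minimum count 10), Benjamini-Hochberg adjustment over all 254 tested names and a threshold of 0.05. SE is the absolute log2 fold change over the square root of F. The fit was checked on simulated counts with planted changes, of which only part was recovered. The named miRNAs were all members, the let-7 partner of each cluster and the 3 nearest profiles of 4 members. miR-122-5p, miR-148a-3p, miR-483-5p, miR-192-5p, miR-194-5p, miR-486-5p, miR-143-3p, miR-126-3p and novel550_mature were named outside this rule, after their values were seen. The same holds for miR-194-3p, miR-483-3p, let-7b-5p, let-7d-5p, let-7d-3p, let-7f-5p, let-7g-5p and let-7i-5p. Members and lists were chosen with earlier results of these data known. No replicate pair held identical counts (chi-square per degree of freedom 16.1 to 21.3). Depth limits low names: 3 counts equal 12.5 to 16.7 CPM in xanthatin and 34.7 to 39.9 CPM in control libraries. Reads carry no molecular identifiers, so counting intervals cover counting error only. Alternatives used other scalings and filters, DESeq2 1.42.0, limma 3.58.1, a replicate block, known names only and each library left out; libraries thinned to equal totals and leaving out novel550_mature were added after seeing the data.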

Additional observations from a re-analysis of the deposited data

How the results depend on the processing

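Over 18 alternatives, miR-10b-5p stayed called and lower, miR-100-5p stayed called and higher except with library totals only, and miR-125a-3p stayed lower and not called. miR-10a-5p stayed lower in all 18 but was called in 6, and miR-99b-3p stayed lower in all 18 and was called in 10. Members called higher numbered 2 with RLE scaling, limma-trend or novel550_mature left out, 3 with DESeq2 and 0 with library totals only, against 1. Members called lower numbered 1 with upper-quartile scaling, without the filter, or at a mean CPM of 10 and above, and 1 to 2 with a library left out, against 3. Library totals moved all log2 fold changes by a median of -0.34 and leaving out novel550_mature by 0.12. Over all names, 22 were called higher and 60 lower with library totals, 60 higher with DESeq2, and 22 to 30 higher with a library left out. Known names only gave 49 calls, 22 higher and 27 lower, from fewer names tested. miR-125b-5p changed sign to 0.12 (RLE and DESeq2), 0.13 (upper quartile), 0.30 (no filter), 0.088 (mean CPM of at least 10), 0.087 (known names only), 0.068 (thinned) and 0.16 (without novel550_mature), and lay between -0.32 and 0.31 with a library left out. miR-99a-5p was at -0.22 with library totals only, and let-7e-5p passed with DESeq2 (0.84, adjusted p = 0.0476). The cause of these changes was not tested. Deviations of same-numbered libraries from their group means had correlations of 0.089, -0.077 and -0.14. With 3 libraries per group these cannot settle whether the replicate numbers pair anything. With the replicate block 54 names were called, 21 of them higher, and of the members 1 was higher and 2 lower. With a library left out, the mean HOX-locus ratio was 0.152 to 0.156 in xanthatin and 0.311 to 0.362 in control libraries. A mean of 3 cannot move by more than the SD when 1 library is left out, so these values test nothing. With 5p arms only the ratio was 0.154 in xanthatin and 0.338 in control libraries.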
